A study of Homo sapiens with 9 samples.

Results

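The clustered protocadherins are cell-adhesion genes that lie side by side on chromosome 5 in the alpha (PCDHA), beta (PCDHB) and gamma (PCDHG) clusters. All genes of the deposited count table with a symbol that starts with PCDHA, PCDHB or PCDHG followed by a letter or a digit were taken, which gave 60 of 60660 genes. The alpha cluster held 16 of them (13 variable genes, 2 C-type genes and 1 pseudogene), the beta cluster 20 (16 variable genes, 3 pseudogenes and the antisense transcript PCDHB1-AS1) and the gamma cluster 24 (19 variable genes, 3 C-type genes and 2 pseudogenes). On GRCh38, the genes spanned chr5:140786136-141012347 in the alpha cluster, chr5:141051374-141249365 in the beta cluster and chr5:141330514-141512977 in the gamma cluster, all by the GENCODE 44 annotation. The beta span leaves out PCDHB1-AS1 (chr5:141046260-141096402), which begins before it.

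The counts came from OVCAR3 cells, an established line of high-grade serous ovarian carcinoma that expresses CTCFL (BORIS), the germline paralog of the DNA-binding factor CTCF. Control cells carried a LacZ plasmid (pCpGfree-vitroHLacZ), and CTCFL-OE cells were transiently transfected with 2 µg of pCpGfree-vitroHBORIS, which carries the CTCFL open reading frame, and were harvested after 48 h. CTCFL-KD cells were treated with siRNA against CTCFL in an earlier knockdown experiment. There were 3 libraries per group, each a biological replicate pooled from 3 technical replicates. The knockdown, its transfection and its being a separate experiment cannot be told apart in any comparison of CTCFL-KD with Control or CTCFL-OE.

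In neurons, each cell transcribes a small choice of the variable alpha, beta and gamma genes, and the combination of protocadherins on its surface lets it tell its own branches from those of other cells. Each variable alpha or gamma gene has its own promoter and a large first exon for the extracellular and membrane-spanning part, which is spliced to constant exons shared by the whole cluster, while the beta genes consist of a single coding exon. Most of these promoters carry a conserved element with the core CGCT, CTCF and cohesin fold chosen promoters onto distant enhancers, and DNA methylation keeps unchosen promoters silent. The C-type genes at the ends of the alpha and gamma clusters follow other rules and are broadly transcribed in many neurons.

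The promoter sequences of 7 members called in CTCFL-KD against Control are shown first, since CTCF acts at these promoters. The call of PCDHGB6 among them was lost in part of the alternative fits. They run from 250 bases before to 50 bases after the start of the gene in RefSeq (GRCh38.p14), and the capitals mark an 8-letter word with the CGCT core. This word was ATGTCGCT for the alpha, GTGGCGCT for the beta and GCCGCTGT for the gamma cluster, in each case the word with this core that most windows of the cluster held on the strand of the gene. The reverse complements searched were AGCGACAT, AGCGCCAC and ACAGCGGC.
PCDHA4, chr5:140806818-140807117, + strand: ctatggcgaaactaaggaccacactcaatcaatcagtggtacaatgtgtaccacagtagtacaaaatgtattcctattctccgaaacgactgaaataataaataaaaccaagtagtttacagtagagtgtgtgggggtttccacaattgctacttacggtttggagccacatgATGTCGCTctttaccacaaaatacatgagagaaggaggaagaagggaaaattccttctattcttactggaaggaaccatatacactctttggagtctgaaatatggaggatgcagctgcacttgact
PCDHB2, chr5:141094365-141094664, + strand: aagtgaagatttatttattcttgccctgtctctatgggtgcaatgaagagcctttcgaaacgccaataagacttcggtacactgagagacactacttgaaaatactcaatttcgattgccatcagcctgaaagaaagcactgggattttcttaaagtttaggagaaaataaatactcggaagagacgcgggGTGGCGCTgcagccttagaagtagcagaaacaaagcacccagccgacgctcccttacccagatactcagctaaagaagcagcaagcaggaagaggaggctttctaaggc
PCDHB3, chr5:141100223-141100522, + strand: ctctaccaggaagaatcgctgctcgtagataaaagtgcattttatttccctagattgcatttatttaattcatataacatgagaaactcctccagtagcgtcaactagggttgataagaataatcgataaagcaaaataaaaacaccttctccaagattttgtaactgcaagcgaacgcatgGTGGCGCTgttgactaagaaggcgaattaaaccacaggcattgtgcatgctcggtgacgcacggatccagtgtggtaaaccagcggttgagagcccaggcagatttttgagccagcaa
PCDHB14, chr5:141223093-141223392, + strand: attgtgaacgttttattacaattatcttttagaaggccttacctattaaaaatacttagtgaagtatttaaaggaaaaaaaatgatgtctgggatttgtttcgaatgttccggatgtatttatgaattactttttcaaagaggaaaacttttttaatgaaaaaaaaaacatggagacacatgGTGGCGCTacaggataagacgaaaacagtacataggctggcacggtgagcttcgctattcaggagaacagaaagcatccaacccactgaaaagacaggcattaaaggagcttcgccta
PCDHB15, chr5:141245145-141245444, + strand: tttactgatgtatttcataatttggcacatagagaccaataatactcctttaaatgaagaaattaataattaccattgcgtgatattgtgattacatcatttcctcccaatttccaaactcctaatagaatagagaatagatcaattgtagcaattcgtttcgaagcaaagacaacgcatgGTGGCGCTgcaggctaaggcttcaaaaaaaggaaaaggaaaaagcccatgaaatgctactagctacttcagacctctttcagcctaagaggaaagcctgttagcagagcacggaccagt
PCDHGB6, chr5:141407771-141408070, + strand: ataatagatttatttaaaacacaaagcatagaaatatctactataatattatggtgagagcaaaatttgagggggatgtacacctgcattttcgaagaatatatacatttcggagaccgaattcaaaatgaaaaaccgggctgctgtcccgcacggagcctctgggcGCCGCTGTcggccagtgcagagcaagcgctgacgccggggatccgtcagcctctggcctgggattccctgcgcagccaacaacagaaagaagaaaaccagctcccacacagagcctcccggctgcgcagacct
PCDHGC3, chr5:141475716-141476015, + strand: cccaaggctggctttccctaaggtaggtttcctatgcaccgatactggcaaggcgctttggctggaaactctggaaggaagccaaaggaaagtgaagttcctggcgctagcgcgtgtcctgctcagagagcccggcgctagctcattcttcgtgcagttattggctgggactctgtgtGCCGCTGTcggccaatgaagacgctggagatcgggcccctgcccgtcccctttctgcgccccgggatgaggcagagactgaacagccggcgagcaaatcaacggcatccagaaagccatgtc

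A window was found for 47 of the 60 members, with 52 windows in all. The core CGCT was present on either strand in 51 of the 52 windows and in 70.0% of 35116 windows of all genes. The longer words each contain this core. ATGTCGCT was present in 9 of 13 alpha windows and in 0.234% of all windows, and GTGGCGCT was present in 13 of 14 beta windows and in 1.15% of all windows. GCCGCTGT was present in 13 of 25 gamma windows and in 1.63% of all windows. The words were chosen on the same windows, so their shares in the clusters describe the members and test nothing. In PCDHB2, PCDHB3, PCDHB14 and PCDHB15 the word began 59, 68, 68 and 69 bases before the start, in PCDHA4 77, in PCDHGB6 83 and in PCDHGC3 72 bases before it. A second window of PCDHGB6, at chr5:141407953-141408252, did not hold the word. The letters AGGGGGC, part of the CTCF consensus, were in 0 of the 52 windows on either strand and in 14.4% of all windows, which says only that these letters were not in these 300 bases. The median GC content of the windows was 37.3% in the alpha, 40.8% in the beta and 47.3% in the gamma cluster, against 58.7% over all genes. Among the C-type genes the GC content was 66.0% in PCDHAC1, 63.0% in PCDHAC2, 59.0% in PCDHGC3 and 60.7% and 62.3% in the 2 windows of PCDHGC4, and part of the variable gamma windows were as rich, with 65.0% in the second window of PCDHGB6. PCDHB11, also called, had no window in the table.

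Total counts per library lay between 14332622 and 24490080, and 3 counts, the most that an observed 0 leaves possible, stood for 0.117 to 0.271 CPM (counts scaled to the effective library size) per library. Limits and intervals from counts cover counting error only. The label check on the targeted gene found 6, 9 and 10 counts of CTCFL in the Control libraries, 36, 34 and 72 in those of CTCFL-OE, where reads from the plasmid are included, and 0, 1 and 0 in those of CTCFL-KD. CTCFL-KD replicate 1 stood apart from the other libraries, with a TMM factor of 0.77 and, among expressed genes, a median difference from the mean of the other 2 libraries of its group of 0.80 (log2) for the shortest genes and of -0.61 for the longest. The cluster sums, fold changes and pooled ratios of members in CTCFL-KD against Control are therefore given with and without it. Mitochondrial reads took 6.16% to 6.52% of the counts in the Control libraries, 7.40% to 14.9% in those of CTCFL-OE and 7.80% to 11.8% in those of CTCFL-KD, and their part in the results below was not tested. OVCAR3 markers were present in all groups, with 12 of 12 tested, and their summed level was 5515 to 5613 CPM in the Control libraries, 4832 to 5210 CPM in those of CTCFL-OE and 9314 to 15280 CPM in those of CTCFL-KD. Of the markers of other cell types, 3 of 10 neuron markers (STMN2, ELAVL4 and NEFL) were at 0 in all libraries. The summed neuron markers were 10.1 to 11.5 CPM in the Control libraries, 5.97 to 7.73 CPM in those of CTCFL-OE and 11.1 to 13.8 CPM in those of CTCFL-KD. In the same order, the fibroblast markers summed to 28.0 to 33.8, 24.99 to 44.2 and 37.8 to 43.0 CPM and the leukocyte markers to 0.25 to 0.51, 0.46 to 1.23 and 2.08 to 3.52 CPM.

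Members were low in OVCAR3 cells, with one exception. Of the 60 members, 5 had no count in any library, 23, these 5 included, had 3 counts or fewer in every library, and 25 reached 10 counts in at least 1 library. All 15 alpha genes other than the pseudogene share 3 constant exons of 59, 89 and 2721 bases, and 22 gamma genes share 3 of 59, 89 and 2029 bases. Because PCDHA1, PCDHA11 and others stood at 0 beside members with counts, reads of the constant exons had not been added to every member. The treatment of reads shared by several genes is not given in the sources used here, and the sum over each cluster is given beside the single genes. Whether strand was used in counting is not given either. Genes on the other strand overlap exons of several members, among them PCDHB2 (with the antisense transcript PCDHB1-AS1), PCDHB3, PCDHB11 and PCDHGB1. Reads of these stretches cannot be told apart without strand. Of the 2726 bases of PCDHA1 that no gene on its strand shares, 7 were also free of genes on the other strand.

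Per kilobase of exon sequence that no other gene on the strand shares, PCDHGC3 had the highest level in each group, with 6.98 ± 0.36 CPM per kb in Control (SD, n = 3), 5.31 ± 2.20 under CTCFL-OE and 1.83 ± 0.84 under CTCFL-KD. The next members in Control were PCDHGB7 with 0.60 ± 0.09, PCDHGB4 with 0.58 ± 0.03 and PCDHGB6 with 0.13 ± 0.05 CPM per kb. PCDHGB7 and PCDHGB4 did not differ beyond their spread. In CTCFL-KD, PCDHGB4 (0.96 ± 0.46), PCDHB3 (0.74 ± 0.18), PCDHGB1 (0.59 ± 0.30), PCDHB2 (0.57 ± 0.12) and PCDHB11 (0.54 ± 0.14) followed PCDHGC3. The ranges of 1 SD to either side overlapped between neighbours along this order. The genes share their libraries, so these ranges do not show whether an order holds within a library. PCDHGC3 lay above PCDHGB4 in each CTCFL-KD library, with 2.80, 7.43 and 7.61 CPM over 3.253 kb against 1.08, 2.85 and 3.18 CPM over 2.459 kb. The plot of all members by chromosome order shows the counts behind these levels.

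**Figure D1:**
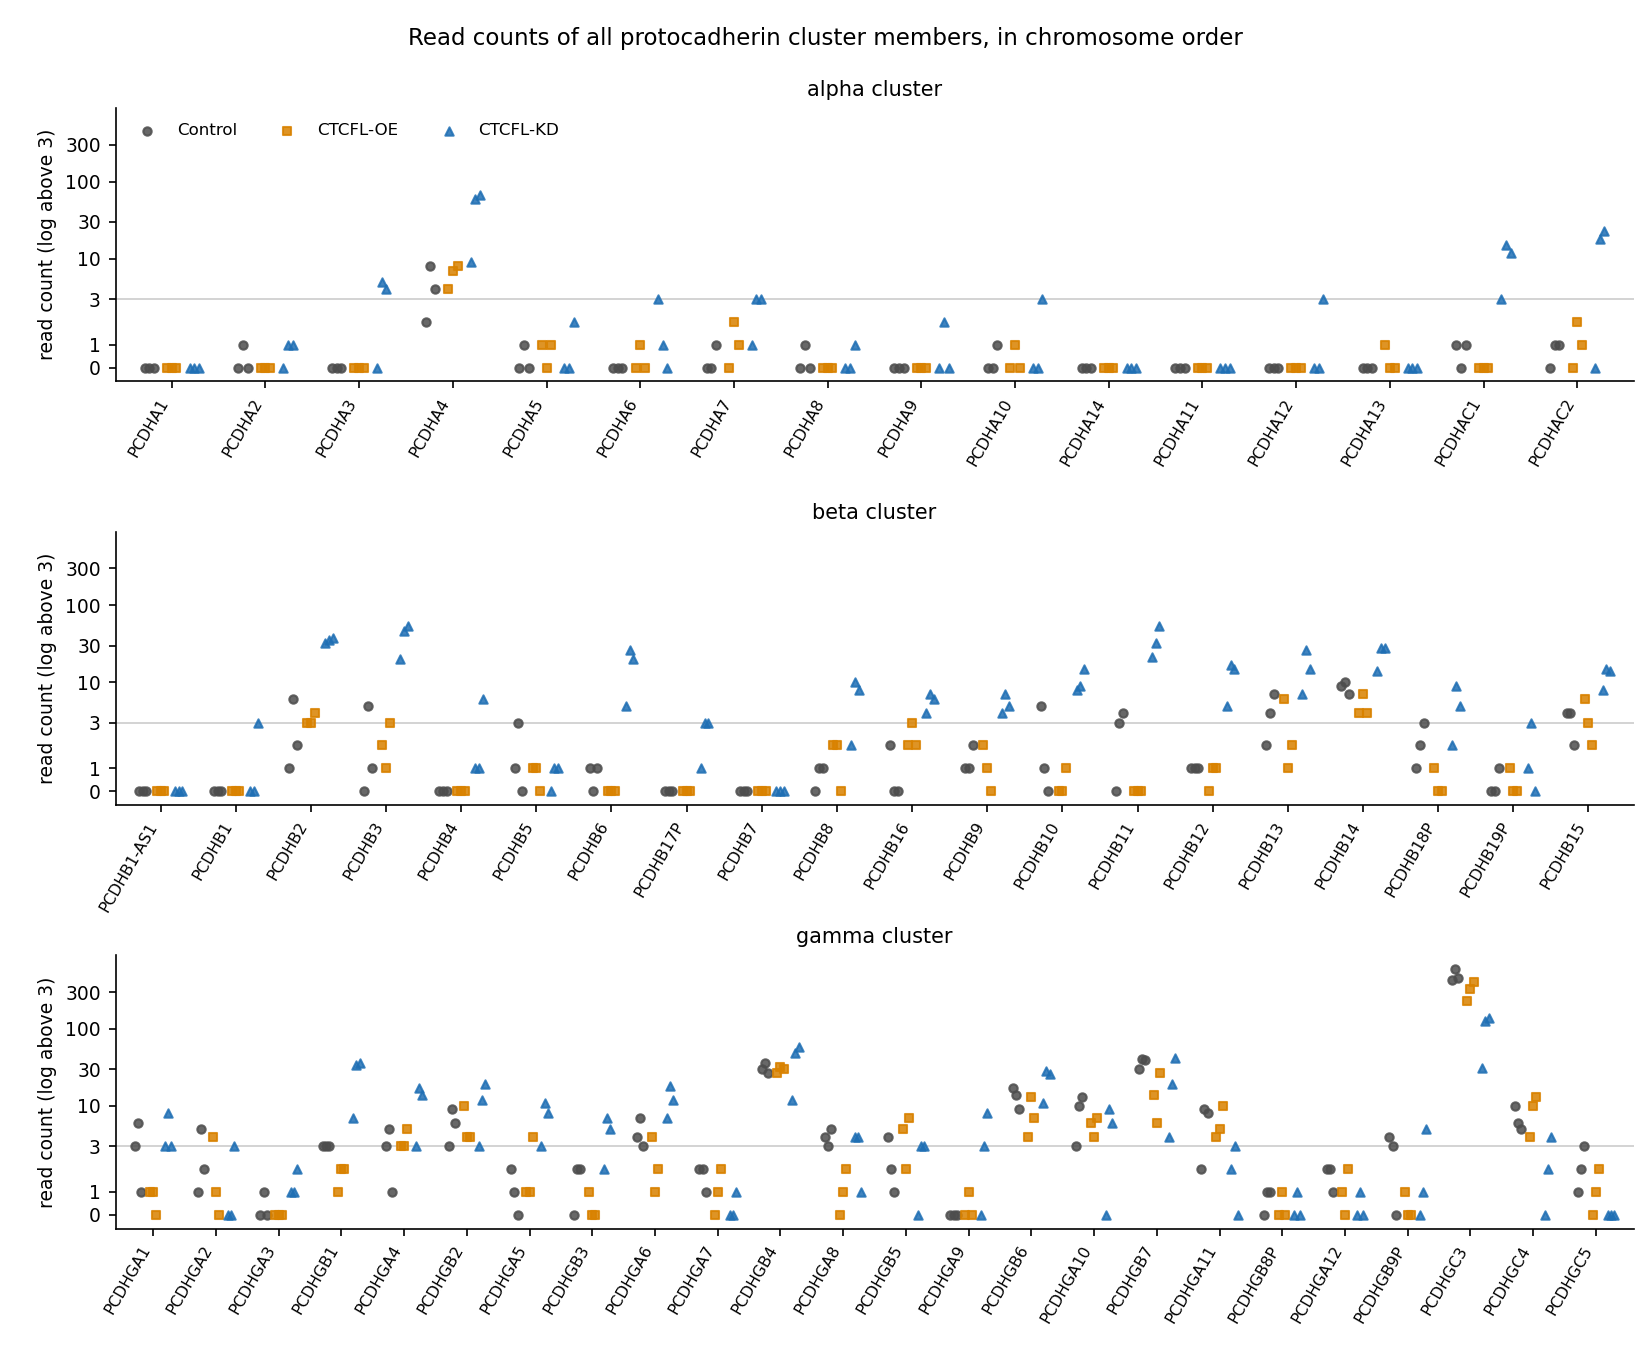
Read counts (linear up to 3, logarithmic above) of all 60 members in chromosome order, with 1 point per library (circles Control, squares CTCFL-OE, triangles CTCFL-KD) and a grey line at 3 counts. Most members sit at or under 3 counts in Control and CTCFL-OE, PCDHGC3 is highest in every library but CTCFL-KD replicate 1, where PCDHB2 has 32 counts and PCDHGC3 31, and 11 of the 20 beta members lie above the line in every CTCFL-KD library.

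In CTCFL-KD, the summed levels of the alpha and beta clusters were higher than in Control and that of the gamma cluster was lower. The beta sum was 1.40, 1.59 and 1.62 CPM in the Control libraries, 1.37, 1.20 and 1.17 CPM in those of CTCFL-OE and 12.2, 16.4 and 15.7 CPM in those of CTCFL-KD. All CTCFL-KD libraries lay far above the others, at 9.59 times the Control mean. The alpha sum was 0.15, 0.47 and 0.41 CPM in the Control libraries, 0.27, 0.68 and 0.68 CPM in those of CTCFL-OE and 1.44, 6.18 and 6.52 CPM in those of CTCFL-KD. The CTCFL-KD mean was 13.8 times the Control mean, with replicate 1 lowest of its group but still above every library of the other groups. These ratios have no test, because a sum over chosen members is a description.

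The gamma sum was 27.8, 29.998 and 29.983 CPM in the Control libraries, 14.5, 21.6 and 32.3 CPM in those of CTCFL-OE and 8.39, 21.1 and 21.6 CPM in those of CTCFL-KD. The Control libraries lay above those of CTCFL-KD by 1.72 times on average, and those of CTCFL-OE overlapped with both. Without PCDHGC3, the gamma sum was 6.41, 6.57 and 6.63 CPM in the Control libraries, 4.15, 4.70 and 7.74 CPM in those of CTCFL-OE and 5.59, 13.7 and 14.02 CPM in those of CTCFL-KD. It thus overlapped between the groups, with replicate 1 of CTCFL-KD below and the other 2 libraries above all Control libraries. Over all 59 members other than PCDHGC3, the mean sum was 8.42 ± 0.39 CPM in Control and 30.6 ± 9.83 CPM in CTCFL-KD (SD, n = 3), and the groups did not overlap. Without CTCFL-KD replicate 1, the CTCFL-KD mean of this sum was 36.2 CPM, or 4.31 times Control, and the ratios to Control were 18.6 for alpha, 10.4 for beta, 2.12 for gamma without PCDHGC3 and 0.73 for the whole gamma cluster. A change in the share of cells that transcribe a gene and a change in RNA per cell cannot be told apart in these bulk samples.

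**Figure D2:**
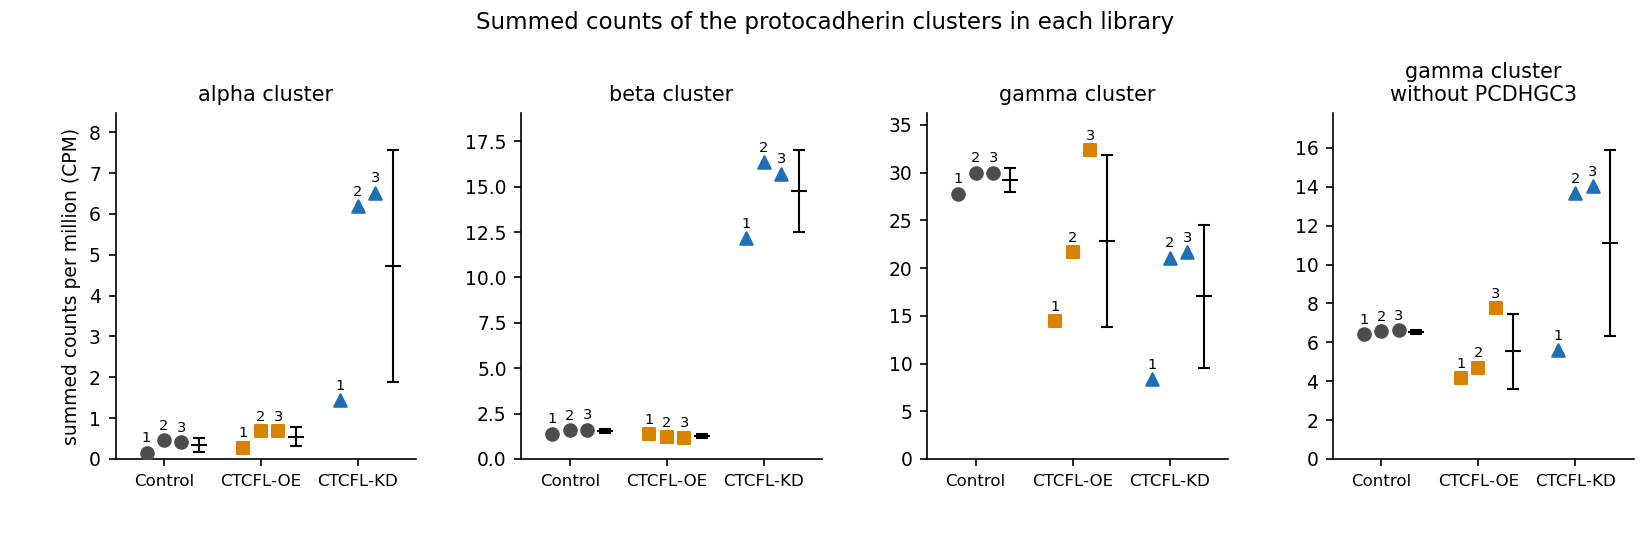
Summed CPM of the alpha, beta and gamma clusters and of the gamma cluster without PCDHGC3, with 1 numbered point per library and the mean ± SD (n = 3) beside each group. The beta and alpha sums of all CTCFL-KD libraries lie above those of Control and CTCFL-OE, and CTCFL-KD replicate 1 is the lowest of its group in each panel.

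Over the 55 members with at least 1 count, all 3 CTCFL-KD libraries lay above all 3 Control libraries in 25 members, which is 45.5%, and below them in 3, which is 5.45%. Over the 37834 genes with at least 1 count, these shares were 17.4% above and 15.5% below. The beta cluster held most of the higher members, with 15 of 18, while the alpha cluster had 3 of 13 and the gamma cluster 7 of 24. All 3 members below Control were C-type genes of the gamma cluster, PCDHGC3, PCDHGC4 and PCDHGC5. By subfamily, the higher members were 13 of the 16 variable beta genes, 2 beta pseudogenes, 2 of the 13 variable and 1 of the 2 C-type alpha genes, and 4 of the 12 A-type and 3 of the 7 B-type variable gamma genes. Among them, PCDHA7, PCDHB17P and PCDHGA3 had 3 counts or fewer in every library, which an observed 0 leaves possible. The A-type gamma genes summed to 1.30, 1.98 and 1.77 CPM in Control and 2.07, 4.46 and 3.18 CPM in CTCFL-KD, and the B-type genes summed to 4.36, 4.12 and 4.41 CPM and 3.52, 8.98 and 10.4 CPM.

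Only 10 of the 60 members passed the filter on low counts and could be tested, 1 in the alpha, 5 in the beta and 4 in the gamma cluster. Of these, 6 (PCDHA4, PCDHB2, PCDHB3, PCDHB11, PCDHB14 and PCDHB15) passed through their CTCFL-KD libraries alone, so that the number of calls among the 10 does not describe the clusters. In the edgeR quasi-likelihood fit, with p adjusted (Benjamini-Hochberg) over all 17794 genes tested, 8 of the 10 were called in CTCFL-KD against Control (log2 fold change beyond 1 and adjusted p under 0.05), 7 higher and 1 lower. Over all genes tested, 23.2% were called, 15.3% higher and 7.94% lower.

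PCDHB2, near the start of the beta cluster (ENSG00000112852.7, chr5:141094606-141098703), had 1, 6 and 2 counts in the Control libraries, 3, 3 and 4 in those of CTCFL-OE and 32, 35 and 37 in those of CTCFL-KD. Scaled to library size, the CTCFL-KD libraries had 2.89, 2.08 and 2.03 CPM, with replicate 1 highest, and all lay well above the others. Its log2 fold change against Control was 4.02 ± 0.43 (SE, adjusted p = 6.8e-05, edgeR). Its neighbour PCDHB3 (ENSG00000113205.5, chr5:141100473-141103827) had 0, 5 and 1 counts in the Control libraries, 2, 1 and 3 in those of CTCFL-OE and 20, 46 and 53 in those of CTCFL-KD. It rose by 4.70 ± 0.56 on the log2 scale (adjusted p = 0.000147, edgeR), with no overlap between CTCFL-KD and the other groups. Control replicate 2, the highest of its group for both genes, moved these values most, to 4.80 for PCDHB2 and 6.28 for PCDHB3 when it was left out, and both stayed called. Both genes encode adhesion proteins with cadherin repeats and carry the word GTGGCGCT in the promoters printed above.

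PCDHB11 (ENSG00000197479.7, chr5:141199610-141203779) had counts of 0, 3 and 4 in Control, 0 in all CTCFL-OE libraries and 21, 32 and 53 in CTCFL-KD. The rise against Control was 4.32 ± 0.57 on the log2 scale (adjusted p = 0.000569, edgeR) and 4.97 without Control replicate 3, with no overlap between the groups, and against CTCFL-OE the level was at least 14.02-fold higher, computed against 3 counts per library. PCDHB14 (ENSG00000120327.6, chr5:141223343-141227759) was the beta gene with the highest counts in Control, 9, 10 and 7, against 4, 7 and 4 in the libraries of CTCFL-OE and 14, 28 and 28 in those of CTCFL-KD. Its rise was smaller, 1.90 ± 0.32 on the log2 scale (adjusted p = 0.00105, edgeR), and again the CTCFL-KD libraries lay above all others. PCDHB15, the last gene of the cluster (ENSG00000113248.6, chr5:141245395-141249365), had 4, 4 and 2 counts in the Control libraries, 6, 3 and 2 in those of CTCFL-OE and 8, 15 and 14 in those of CTCFL-KD and rose by 2.34 ± 0.42 on the log2 scale (adjusted p = 0.00162, edgeR). Without CTCFL-KD replicate 1, the log2 fold changes of these 5 genes were 3.85, 4.86, 4.42, 1.99 and 2.39 in the order given, and all were called.

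The other variable beta genes stayed too low for the fit. PCDHB6, named here after its values were seen, had counts of 1, 0 and 1 in Control, 0 in all CTCFL-OE libraries and 5, 26 and 20 in CTCFL-KD, a ratio of 36.2 of the pooled levels (95% exact interval 9.51 to 307, counting error only) and of 42.9 (11.2 to 365) without CTCFL-KD replicate 1. All of its CTCFL-KD libraries were above Control. PCDHB7 and PCDHB1-AS1 were at 0 in all 9 libraries, which allows up to 3 counts in each. Of the 18 beta members with a count, 3 overlapped between CTCFL-KD and Control. The 15 others, the 5 tested genes and 10 untested ones, lay above Control in every CTCFL-KD library.

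In the alpha cluster, PCDHA4 (ENSG00000204967.12, chr5:140807037-141012347) carried most of the counts. It had 2, 8 and 4 counts in the Control libraries, 4, 7 and 8 in those of CTCFL-OE and 9, 59 and 67 in those of CTCFL-KD, or 61.1% ± 9.62, 64.4% ± 9.64 and 56.4% ± 0.26 (SD, n = 3) of the alpha counts in the same order. CTCFL-KD replicates 2 and 3 were high and replicate 1 lay just above the other groups, at 0.81 CPM against a highest value of 0.31 CPM in Control and 0.49 CPM in CTCFL-OE. PCDHA4 rose by 3.65 ± 0.60 on the log2 scale against Control (adjusted p = 0.000943, edgeR), and by 4.04 without CTCFL-KD replicate 1. PCDHA1, PCDHA11 and the pseudogene PCDHA14 had no count in any library, and PCDHA3 was the only other variable alpha gene with more than 3 counts in a library, in CTCFL-KD.

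The 2 C-type genes of the alpha cluster, each with its own promoter between those of the variable genes and the constant exons, were too low to be tested. PCDHAC1 (ENSG00000248383.5, chr5:140926299-141012347) had counts of 1, 0 and 1 in Control, 0 in all CTCFL-OE libraries and 3, 15 and 12 in CTCFL-KD, a pooled ratio of 21.3 to Control (95% exact interval 5.40 to 184; without CTCFL-KD replicate 1 25.2, 6.33 to 219) and at least 3.81-fold higher than in CTCFL-OE. PCDHAC2 (ENSG00000243232.6, chr5:140966470-141012347) had 0, 1 and 1 counts in the Control libraries, 0, 2 and 1 in those of CTCFL-OE and 0, 18 and 23 in those of CTCFL-KD, a pooled ratio of 29.1 to Control (95% exact interval 7.55 to 248), or 38.2 (9.93 to 326) without CTCFL-KD replicate 1. For PCDHAC2, CTCFL-KD replicate 1 stood at 0 like part of the Control libraries, so the groups overlapped, whereas for PCDHAC1 they did not.

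PCDHGC3, the first C-type gene of the gamma cluster (ENSG00000240184.7, chr5:141475947-141512977), codes for a protocadherin that binds AXIN1, a scaffold of Wnt signalling, and it was the 1 member called lower. It had 427, 603 and 461 counts in the Control libraries, 226, 324 and 400 in those of CTCFL-OE and 31, 125 and 139 in those of CTCFL-KD. Scaled to library size, these were 21.4, 23.4 and 23.3 CPM, 10.3, 16.9 and 24.6 CPM, and 2.80, 7.43 and 7.61 CPM. Each CTCFL-KD library lay below all Control and CTCFL-OE libraries, and CTCFL-OE overlapped with Control. The log2 fold change in CTCFL-KD against Control was -1.91 ± 0.37 (SE, adjusted p = 0.00259, edgeR), and it was -1.59 without CTCFL-KD replicate 1. The other gamma C-type genes were low. PCDHGC4 (ENSG00000242419.5, chr5:141484997-141512975), which supports neuronal survival in mice, had 10, 6 and 5 counts in the Control libraries, 4, 10 and 13 in those of CTCFL-OE and 0, 2 and 4 in those of CTCFL-KD, a pooled ratio of CTCFL-KD to Control of 0.41 (95% exact interval 0.13 to 1.04) that did not exclude no change. Without CTCFL-KD replicate 1 this ratio was 0.53 (0.18 to 1.37). Against CTCFL-OE the pooled ratio of PCDHGC4 was 0.28 (0.093 to 0.68), or 0.36 (0.12 to 0.90) without that library, and with no low-count filter it was called lower there (log2 fold change -1.92, adjusted p = 0.0366, edgeR) but not against Control (-1.36, adjusted p = 0.196, edgeR). The fit without CTCFL-KD replicate 1 did not call it against CTCFL-OE (-1.45, adjusted p = 0.147, edgeR). PCDHGC5 (ENSG00000240764.4, chr5:141489081-141512975) had 1, 2 and 3 counts in the Control libraries, 0, 1 and 2 in those of CTCFL-OE and 0 in all CTCFL-KD libraries, all at or under the 3 counts that an observed 0 leaves possible.

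Among the variable gamma genes, PCDHGB6 (ENSG00000253305.2, chr5:141408021-141512975) had 17, 14 and 9 counts in the Control libraries, 4, 13 and 7 in those of CTCFL-OE and 11, 28 and 26 in those of CTCFL-KD, or 0.85, 0.54 and 0.46 CPM, 0.18, 0.68 and 0.43 CPM and 0.99, 1.66 and 1.42 CPM. The CTCFL-KD libraries lay above the others by a narrow margin, and the log2 fold change of 1.16 ± 0.42 passed the threshold just so (adjusted p = 0.0474, edgeR). It was 1.325 without CTCFL-KD replicate 1 (adjusted p = 0.0215, edgeR). With the replicate number as a block it was 1.13 and no longer called (adjusted p = 0.0684, edgeR), which left 7 members called. In that fit 22.6% of all genes were called, a share the members' count is not read against, since 6 of the 7 passed the filter through CTCFL-KD alone. The call was also lost without Control replicate 1 (adjusted p = 0.0539, edgeR), 2 (0.148) or 3 (0.159), without CTCFL-OE replicate 3 (0.0687) and without CTCFL-KD replicate 2 (0.133) or 3 (0.0959).

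PCDHGB4 (ENSG00000253953.3, chr5:141387698-141512975) had 30, 36 and 27 counts in the Control libraries, 27, 32 and 30 in those of CTCFL-OE and 12, 48 and 58 in those of CTCFL-KD, with a log2 fold change of 0.77 ± 0.35 against Control that was not called (adjusted p = 0.103, edgeR). CTCFL-KD replicate 1 was the lowest and replicates 2 and 3 the highest of all libraries, and without replicate 1 the log2 fold change was 1.09 and called (adjusted p = 0.0030, edgeR). PCDHGB7 (ENSG00000254122.3, chr5:141417645-141512975) had 30, 40 and 39 counts in the Control libraries, 14, 6 and 27 in those of CTCFL-OE and 4, 19 and 42 in those of CTCFL-KD. The groups overlapped, its log2 fold change of -0.33 ± 0.57 was not called (adjusted p = 0.671, edgeR), and it turned to 0.05 without CTCFL-KD replicate 1. PCDHGB1, named after its values were seen, had 3 counts in each Control library, 1, 2 and 2 in the libraries of CTCFL-OE and 7, 34 and 36 in those of CTCFL-KD, a pooled ratio of 12.1 to Control (95% exact interval 6.07 to 27.5) with no overlap. Without CTCFL-KD replicate 1 it was 14.5 (7.22 to 33.1).

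Leaving out CTCFL-KD replicate 1, which also changes how many members pass the filter, 19 of 22 members tested were called in CTCFL-KD against Control, against 22.1% of all genes tested in that fit. Of the 22, 16 passed the filter through their CTCFL-KD libraries alone, so this count is set by the filter and is not read against the share of all genes. The 8 members called with all 9 libraries were among them. The others were PCDHAC1, PCDHAC2, PCDHB6, PCDHB10, PCDHB12, PCDHB13, PCDHGA4, PCDHGA6, PCDHGB1, PCDHGB2 and PCDHGB4. With no filter on low counts, 25 of 55 members were called against 13.6% of all genes with a count.

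**Figure D3:**
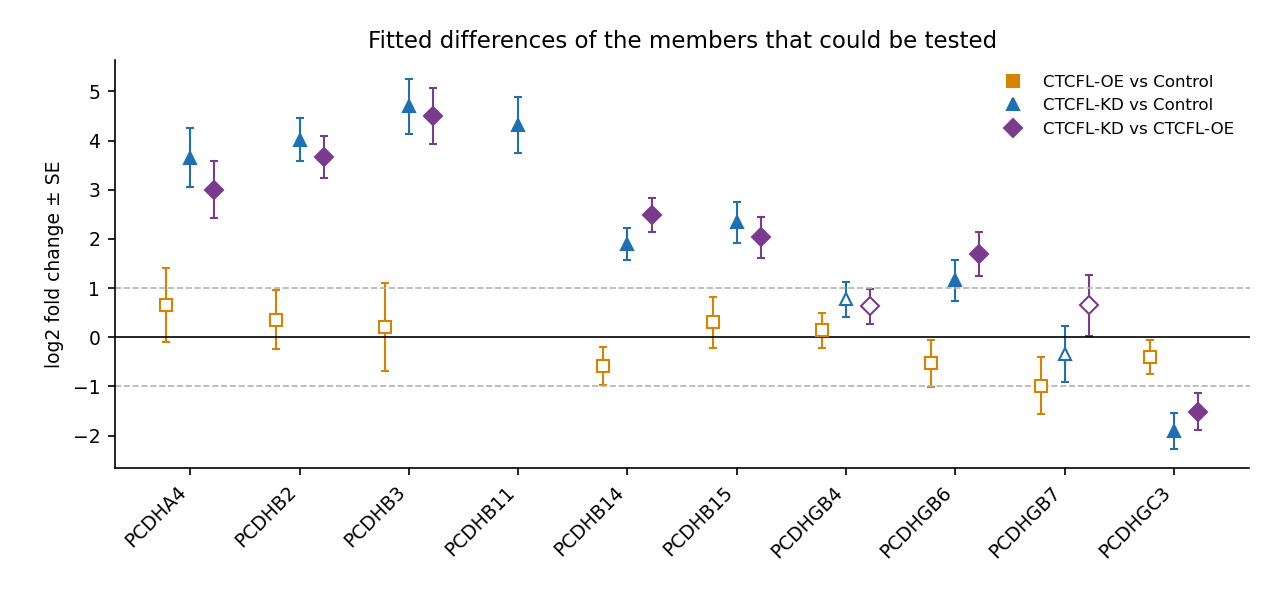
Log2 fold change ± SE (edgeR) of the 10 members tested in the 3 comparisons, with filled symbols for called members, open symbols for members not called and dashed lines at a log2 fold change of 1 in either direction. The values of PCDHB11 against CTCFL-OE, where all libraries were at 0, are left out. PCDHA4, PCDHB2 and PCDHB3 lie at or above 3.003 in both comparisons of CTCFL-KD, PCDHGC3 lies at -1.91 and -1.51, and no symbol of CTCFL-OE against Control is filled.

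The make-up of the protocadherin counts changed with these shifts. PCDHGC3 took 73.0% ± 0.11 of all member counts in Control, 69.3% ± 4.59 under CTCFL-OE and 15.7% ± 2.595 under CTCFL-KD (SD, n = 3). The beta cluster took 4.94% ± 0.15, 5.68% ± 2.59 and 42.9% ± 10.8, and the alpha cluster 1.08% ± 0.50, 2.19% ± 0.62 and 11.9% ± 4.61, in the same order. The shares of gamma members other than PCDHGC3 were closer, with 21.0% ± 0.72, 22.8% ± 2.89 and 29.6% ± 3.61. Since these shares are within a library, they do not depend on the scaling between libraries. In CTCFL-KD replicate 1, PCDHGC3 took 12.7% of the member counts and in replicates 2 and 3 it took 17.03% and 17.4%. Its beta share, 55.3%, was the highest of the group.

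**Figure D4:**
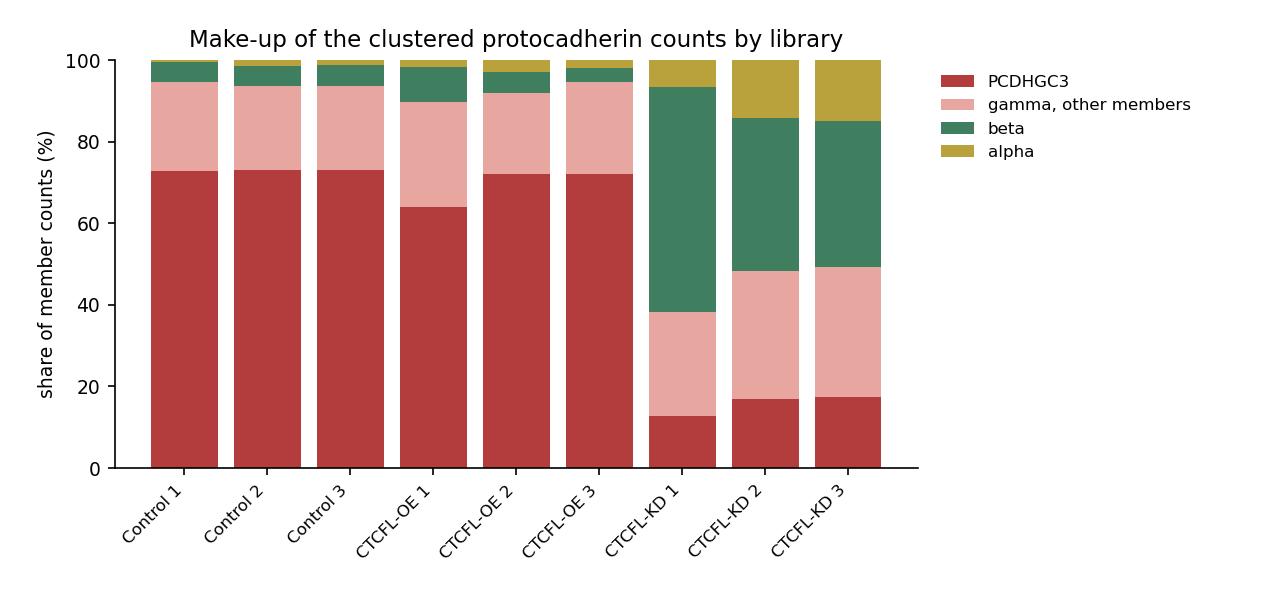
Share of all clustered protocadherin counts (%) taken by PCDHGC3, the other gamma members, the beta cluster and the alpha cluster, with 1 stacked bar per library. PCDHGC3 takes between 64.0% and 73.1% in the Control and CTCFL-OE libraries, and 12.7% to 17.4% in those of CTCFL-KD, where the beta share is between 35.8% and 55.3%.

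The comparison of CTCFL-OE with Control shares its 3 Control libraries with that of CTCFL-KD. No member was called in it by edgeR among the 10 tested, against 2.07% of all genes tested, and 1 of the 10, PCDHB11, had an unadjusted p under 0.05, against 17.7% of all genes. DESeq2 called 0 members as well. PCDHB11 had 0 counts in all CTCFL-OE libraries and 0, 3 and 4 in Control, levels too low for a fold change (adjusted p = 0.219, edgeR). With no low-count filter it was the 1 member called of 55 (adjusted p = 0.0909, edgeR), against 2.18% of all genes. For PCDHGC3 the log2 fold change was -0.40 ± 0.35 (adjusted p = 0.577, edgeR), and CTCFL-OE replicate 1 lay lowest and replicate 3 highest of all 6 libraries. Of the 55 members with a count, all 3 CTCFL-OE libraries lay above Control in 0 and below it in 1 (1.82%), the pseudogene PCDHB18P with 1, 0 and 0 counts against 1, 2 and 3, while 10.6% of all genes with a count lay above and 11.1% below. The beta sum of CTCFL-OE lay just below that of Control in all libraries, with a mean of 1.25 ± 0.11 against 1.54 ± 0.12 CPM (SD, n = 3), a ratio of 0.81.

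Compared with CTCFL-OE, 8 of 10 members were called in CTCFL-KD by edgeR in the fit of all 9 libraries (7 higher, 1 lower). Over all genes tested 17.0% were called, 10.6% higher and 6.42% lower, and the members' count is not read against these shares, since 6 of the 10 passed the filter through CTCFL-KD alone. With the CTCFL-OE and CTCFL-KD libraries alone, 7 of 9 members tested were called, and PCDHB15 did not pass the filter. This count is not read against a share of all genes. The 8 members called in the fit of all 9 libraries were the same genes as against Control, and both comparisons share the CTCFL-KD libraries. PCDHA4 differed by 3.003 ± 0.57, PCDHB2 by 3.67 ± 0.43, PCDHB3 by 4.49 ± 0.57 and PCDHB14 by 2.48 ± 0.35 on the log2 scale, with adjusted p between 0.000167 and 0.00332 (edgeR). PCDHB15 differed by 2.03 ± 0.42 (adjusted p = 0.00476), PCDHGB6 by 1.69 ± 0.45 (adjusted p = 0.0176) and PCDHGC3 by -1.51 ± 0.37 (adjusted p = 0.0124, all edgeR). Without CTCFL-KD replicate 2 the call of PCDHGB6 was lost here too (1.51, adjusted p = 0.0552, edgeR). Over the 55 members with a count, 24 lay above CTCFL-OE in all CTCFL-KD libraries and 2 below, 43.6% and 3.64%, against 12.3% and 12.1% of all genes with a count. Without CTCFL-KD replicate 1, 18 of 22 members tested were called and 16.9% of all genes, where 16 of the 22 again passed the filter through CTCFL-KD alone and the count is not read against that share, and with no low-count filter 26 of 55 against 10.4%.

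Genes that act on or with the clusters were read from lists that hold no member. Of 25 regulators of the clusters (CTCF, cohesin and its loaders, DNA methylation and chromatin factors), 25 were tested, and 0 were called higher and 3 lower in CTCFL-KD against Control, with a median log2 fold change of -0.55 against 0.08 over all genes, of which 15.3% were called higher and 7.94% lower. The 3 were CTCFL, the target of the siRNA, DNMT3B, a de novo DNA methyltransferase that methylates protocadherin promoters, and SMC3, a cohesin subunit. DNMT3B averaged 75.6 CPM in Control, 85.002 CPM under CTCFL-OE and 16.2 CPM under CTCFL-KD and fell by 2.22 ± 0.21 on the log2 scale, and SMC3 fell by 1.10 ± 0.23 (adjusted p = 0.00388, edgeR). Without CTCFL-KD replicate 1, SMC3 stood at -0.87 and was no longer called, which left CTCFL and DNMT3B, and the median over the 25 was -0.34 against 0.014 over all genes. The call of CTCFL, whose counts in CTCFL-KD were 0, 1 and 0, was lost without CTCFL-KD replicate 3 (adjusted p = 0.0551, edgeR). CTCF, which binds the promoters and enhancers, averaged 80.7 CPM in Control, 70.3 CPM under CTCFL-OE and 60.4 CPM under CTCFL-KD and was not called (log2 fold change -0.42 ± 0.16, adjusted p = 0.0566, edgeR). In CTCFL-OE, 1 of the 25, CTCFL, was called higher and 0 lower.

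Of 22 intracellular partners and processing enzymes of the protocadherins, 21 were tested, and 6 were called higher and 2 lower in CTCFL-KD against Control, beside 15.3% and 7.94% of all genes tested. Those higher included subunits of gamma-secretase, the protease that releases the intracellular part of protocadherins from the membrane: PSENEN (2.10 ± 0.46), NCSTN (1.52 ± 0.23), APH1B (1.52 ± 0.21) and APH1A (1.18 ± 0.20, all log2 fold change ± SE). FYN, a kinase of the Src family, was also higher, with 1.54 ± 0.17. WASF3, of the WAVE complex that alpha protocadherins bind, fell by 1.02 ± 0.28, and RET, a receptor kinase that phosphorylates protocadherins, fell by 1.29 ± 0.43 on the log2 scale. PSENEN had 26.5, 25.02 and 25.3 CPM in the Control libraries and 208.6, 57.9 and 64.6 CPM in those of CTCFL-KD, and its log2 fold change was 1.26 without CTCFL-KD replicate 1, still called. Without that library 6 of the 21 were called higher and 0 lower, WASF3 (-0.77) and RET (-1.23) no longer being called. The call of WASF3 was also lost without Control replicate 1 (-0.99), and that of RET without Control replicate 1 (-1.30) or 3 (-1.04) or CTCFL-KD replicate 2 (-1.12). ADAM10, which sheds the extracellular part, was not called (-0.05 ± 0.27). In CTCFL-OE 0 of the 21 were called.

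Within 500 kb of the clusters lie 31 other protein-coding genes, of which 26 were tested, and 2 were called higher and 1 lower in CTCFL-KD against Control, with a median log2 fold change of -0.11, beside 15.3% called higher and 7.94% lower over all genes tested. These were CD14, a co-receptor for lipopolysaccharide and a leukocyte marker, with 3.84 ± 0.58, NDUFA2, a subunit of respiratory complex I, with 1.37 ± 0.46, and ARAP3, a GTPase-activating protein, with -2.24 ± 0.20 (log2 fold change ± SE). NDUFA2 had 168.2 CPM in CTCFL-KD replicate 1, 40.4 and 42.2 CPM in the other 2 libraries and 30.8 to 33.8 CPM in Control. Its log2 fold change was 0.36 without CTCFL-KD replicate 1, where the median over the 26 genes was -0.29, and it was not called in 7 of the 9 fits that left out 1 library, those without each Control or CTCFL-OE library included. TAF7, a general transcription factor that lies between the beta and the gamma cluster, was not called (0.37 ± 0.15, adjusted p = 0.0738, edgeR). The protocadherin PCDH1, which lies past the gamma cluster and is no member, was not called either (0.22 ± 0.19, adjusted p = 0.374, edgeR). In CTCFL-OE 0 of the 26 were called.

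Markers of other cells also moved in CTCFL-KD against Control. Of 4 neuron markers tested, ELAVL3 and SYT1 were called higher and RBFOX3 lower, of 4 fibroblast markers COL1A2 (mean 13.9 CPM, against 0 in Control) and POSTN were called higher, of 1 leukocyte marker CD14 was called higher, and of the 12 OVCAR3 markers 6 were called higher and 1 lower. The call of RBFOX3 was lost in 3 of the 9 fits that left out 1 library, and without CTCFL-KD replicate 1 the OVCAR3 markers called higher were 5. The 1 OVCAR3 marker called lower, KRT7, lost its call without CTCFL-KD replicate 2 (-0.91, adjusted p = 0.0519, edgeR) or 3 (-0.92, adjusted p = 0.0516, edgeR). Without Control replicate 3, the log2 fold change of ELAVL3 moved from 5.24 to 6.11 and that of POSTN from 2.74 to 3.57. In CTCFL-OE against Control, RBFOX3 was also called lower, with 3.88, 5.02 and 3.69 CPM against 9.27, 8.12 and 9.37 CPM, and 0 other markers of these lists were called. The part of these markers in the protocadherin results was not tested.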

How the data were processed

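RNA-seq of 9 OVCAR3 libraries was used, 3 per group, with groups from the sample titles. The authors trimmed reads (Trimmomatic), aligned to GRCh38 (STAR) and summed reads per gene (featureCounts, Rsubread 1.32.4), and the deposited values are raw counts. The submitters' processing notes also name kallisto. Annotation release, strand option and handling of reads that fit several genes are not given in the sources used here. Gene names, positions and exon lengths came from GENCODE 44 (60463 of 60660 identifiers matched), and promoter windows from RefSeq (GRCh38.p14).

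Counts were filtered with filterByExpr, which kept 17794 genes and 10 members, scaled by TMM and fitted with edgeR 4.0.16 (robust quasi-likelihood, R 4.3.3) to all 9 libraries with the group as the only factor. Adjusted p-values are Benjamini-Hochberg values over all genes tested. A call needed a log2 fold change beyond 1 and adjusted p values under 0.1 (CTCFL-OE) or 0.05 (both comparisons of CTCFL-KD), the thresholds of the study for the comparisons with Control, the latter also applied here to CTCFL-KD against CTCFL-OE. CPM use the TMM-scaled library sizes, and SE is the log2 fold change over the root of F. Pooled ratios divide summed counts by summed library sizes, with exact intervals at 95%. The fit was tested on simulated data. Alternatives were DESeq2 1.42.0, other scalings, filters and fits, and each library left out.

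Members named with values were those called in any comparison, the 3 of each cluster with the highest mean CPM and the C-type genes. Other members with values given, such as PCDHB6, PCDHB18P and PCDHGB1, were named after their values were seen. The values of 1 gene of the lists are not reported here. Members and lists were chosen with earlier results of these data known. Replicate numbers come from the sample labels. Over 11622 genes, Control and CTCFL-KD libraries with one number deviated together from their groups (correlations 0.38, 0.22 and 0.27), so a fit with the number as a block was also run. With length and GC trends removed, these correlations were 0.21, 0.13 and 0.20. Whether the numbers pair these libraries is not known. For CTCFL-OE and Control the correlations were -0.04, 0.22 and -0.05, and the numbers do not pair these libraries. Total counts of 14332622 to 24490080 per library limit the precision, and most members were too low to be tested.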

Additional observations from a re-analysis of the deposited data

How the results depend on the processing

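Against Control, the number of members called in CTCFL-KD was 8 as reported and between 7 and 9 with DESeq2, RLE or upper-quartile scaling, no robust estimation, the 2 groups alone, length and GC offsets or the replicate block. The replicate block, applied because Control and CTCFL-KD libraries with one number deviated together, gave 7 calls and lost PCDHGB6. It changed no other call of the members named. With no low-count filter 25 of 55 members were called (13.6% of all genes in that fit). With a mean of at least 1 CPM 2 of 4 were called, since fewer members were then tested, and this count is not read against a share of all genes. In CTCFL-KD against CTCFL-OE these 2 settings gave 26 and 2 calls, and in CTCFL-OE against Control no filter gave 1 call, PCDHB11. Leaving out 1 library in turn gave between 8 and 19 calls in CTCFL-KD against Control (15 to 17 without any 1 Control or CTCFL-OE library, 19 without CTCFL-KD replicate 1, 8 without CTCFL-KD replicate 2 or 3), between 8 and 18 against CTCFL-OE and 0 in CTCFL-OE against Control. The filter then needs 2 libraries instead of 3, and 12 to 22 members pass it. The direction turned in 4 log2 fold changes that were not called, all on leaving out 1 library. PCDHB3 in CTCFL-OE lay between -0.29 (without Control replicate 1 or CTCFL-OE replicate 3) and 1.80, PCDHB15 in CTCFL-OE between -0.12 (without CTCFL-OE replicate 1) and 0.51, PCDHGB7 in CTCFL-KD against Control between -1.08 and 0.050 (without CTCFL-KD replicate 1), and PCDHGB7 against CTCFL-OE between -0.093 (without CTCFL-KD replicate 3) and 1.44. The cause was not tested. PCDHGB6 was called in 8 of 18 alternatives against Control, with log2 fold changes between 0.96 and 1.43. The fits of the gene lists without 1 library were added after the data were seen. The cluster sums kept their direction and moved by less than the spread between libraries under RLE, upper-quartile and total-count scaling and with geometric means.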
